A study of Mus musculus with 10 samples.

Results

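Nat8l-rich cells are mouse trophoblast stem cells (TSCs) whose transcript count of Nat8l was high, and they were chosen from 1 plate of single TSCs. Wells with at least 2000 unique molecular identifiers (UMIs) outside mitochondrial genes were kept, and a kept well with at least 8 Nat8l UMIs per 10000 was called Nat8l-rich. This gave 100 Nat8l-rich wells of 318 kept wells on the plate, and of 1192 kept wells in the series. They were set against the 165 kept wells of the plate with under 3 Nat8l UMIs per 10000, called Nat8l-low, and the 53 wells between these limits were called intermediate. The plate held F4 TSCs in Tx medium, 1 culture on a C57BL/6J background that carries a randomly integrated cassette for the expression of GFP. Both groups come from that 1 library, sorted and sequenced together, so there is no replicate of the comparison. The series also holds 1 plate each of newly derived pTSCs in LT21 medium, of pTS1 pTSCs taken out of blastoids, and of F4 TSCs after 6 days without growth factors, all with the same background and a GFP cassette. A further 6 bulk libraries come from TSCs in which eGFP was knocked in at the coding sequence of CDX2, with 3 libraries of CDX2-high and 3 of CDX2-low cells.

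Trophoblast stem cells are the cultured counterpart of the polar trophectoderm, the part of the blastocyst wall that touches the inner cell mass and receives FGF4 from it. FGF acts through FGF receptors and the kinase ERK, which keeps Cdx2, Eomes and Sox2 on, and Nodal and TGF-beta signals add to this. Away from the inner cell mass, mural trophectoderm turns into giant cells, and the polar part later gives the ectoplacental cone and the labyrinth of the placenta. Nat8l encodes the enzyme that makes N-acetylaspartate from aspartate and acetyl-CoA. Cyp26a1, the strongest of the other markers given for these cells, encodes an enzyme that clears retinoic acid and is itself a classical target of retinoic acid receptors.

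Promoters are shown for 3 genes that the results turn on: Cyp26a1 and the nuclear receptor gene Nr0b1, which were higher in Nat8l-rich wells, and the keratin gene Krt8, which was lower. Each sequence is the RefSeq window on GRCm38.p6 from 250 bases before to 50 bases after the start of the gene, on its own strand. Capitals mark matches to a direct repeat of AGTTCA or AGGTCA with 5 bases between the copies, to the single nuclear receptor hexamer AGGTCA, to the SOX motif ACAAAG and to the GC box GGGCGG, on either strand.
Cyp26a1: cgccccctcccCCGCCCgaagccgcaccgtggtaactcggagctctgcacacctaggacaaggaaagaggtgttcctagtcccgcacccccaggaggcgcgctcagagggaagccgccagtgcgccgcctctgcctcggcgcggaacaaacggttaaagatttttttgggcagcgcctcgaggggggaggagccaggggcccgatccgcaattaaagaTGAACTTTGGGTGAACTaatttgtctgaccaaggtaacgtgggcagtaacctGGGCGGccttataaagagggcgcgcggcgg
Nr0b1: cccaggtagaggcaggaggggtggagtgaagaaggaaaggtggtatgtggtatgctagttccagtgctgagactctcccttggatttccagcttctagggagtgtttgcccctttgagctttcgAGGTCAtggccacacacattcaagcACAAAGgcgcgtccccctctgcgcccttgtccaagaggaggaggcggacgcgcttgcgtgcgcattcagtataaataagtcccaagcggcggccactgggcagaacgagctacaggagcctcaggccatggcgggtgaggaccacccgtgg
Krt8: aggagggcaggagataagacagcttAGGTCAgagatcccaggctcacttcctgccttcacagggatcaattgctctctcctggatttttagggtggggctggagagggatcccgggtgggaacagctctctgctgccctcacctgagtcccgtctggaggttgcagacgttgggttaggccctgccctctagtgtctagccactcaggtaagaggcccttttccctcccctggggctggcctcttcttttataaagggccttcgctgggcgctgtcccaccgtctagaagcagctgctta
The windows lie at chr19:37697558-37697857 on the plus strand for Cyp26a1, at chrX:86191525-86191824 on the plus strand for Nr0b1 and at chr15:102004293-102004592 on the minus strand for Krt8. The direct repeat, which overlaps no other match, was found in 13 of 32851 RefSeq promoter windows (0.0396%). Cyp26a1 was the only 1 of the 12 matched genes among the markers and the most strongly higher genes that holds it. The repeat was searched after the Cyp26a1 window had been seen, so its match there was fixed in advance and is no test. Among all windows the single hexamer was found in 16.3%, the SOX motif in 18.7% and the GC box in 35.7%. ETS sites (CCGGAA, 14.9% of windows) and AP-1 sites (TGANTCA, 7.81%) were also searched, with 4 and 0 of the 12 windows holding one. A match describes letters in a window, and binding was not measured.

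Nat8l-rich and Nat8l-low wells were of similar depth. UMIs outside mitochondrial genes ran over 2077, 13342 and 48957 (lowest, median, highest) in Nat8l-rich wells and over 2384, 15880 and 65760 in Nat8l-low wells. The mitochondrial share had a median of 11.9% in Nat8l-rich wells and 13.5% in Nat8l-low wells, and the median number of genes detected was 3828 in Nat8l-rich and 4079 in Nat8l-low wells. Nat8l itself, which the choice of wells used and which is no result, had a median of 18.3 UMIs per 10000 in Nat8l-rich wells (8.15 to 57.7) and 0.722 in Nat8l-low wells (0 to 2.997). The wells just inside the limit held 8.15, 8.23 and 8.64, and those just outside held 7.99, 7.93 and 7.62, so no gap separates the members from the intermediate wells. In wells 1 to 96, 97 to 192, 193 to 288 and 289 to 384 of the plate, 17 of 75, 33 of 87, 32 of 88 and 18 of 68 kept wells were Nat8l-rich. All plates use the same 384 well barcodes, so that shared barcodes say nothing about shared cells.

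Summed over wells, the Nat8l-rich group held 1652550 UMIs and the Nat8l-low group 3001973, and levels of genes are given as CPM, the summed count of a gene scaled to the same UMI total in every group. Of 6449 genes measured with at least 50 counts over both groups, Nat8l left out, 177 (2.74%) were at least 2-fold higher in Nat8l-rich wells and 233 (3.61%) at least 2-fold lower. The split used the Nat8l count and the UMI total of each well, and cells of 1 library are not replicates. These counts of genes therefore describe 2 sets of wells in 1 library and carry no test. Intervals given with log2 ratios are 95% intervals from the counts alone and cover counting error only, without the spread between cells. When Nat8l-low wells with any UMI of 6 differentiation genes (Gjb2, Dlx3, Serpinb9e, Hsd11b2, Tgm2 or Dkk1) were left out, a step chosen after the values were seen, 90 Nat8l-low wells remained, and 153 genes were higher and 110 lower. Higher genes then made up 58.2% of the genes past 2-fold, against 43.2% with all Nat8l-low wells. A single UMI was enough to leave a well out, so deeper wells were more likely to be left out. All 100 Nat8l-rich wells stayed in. Gjb2, Dlx3, Serpinb9e, Tgm2 and Dkk1 were themselves past 2-fold lower. A smaller lower count is therefore partly built into this step, and the change in share is no separate result.

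The markers given for the cells were all higher in sum, but few Nat8l-rich wells held them all. Cyp26a1 stood at 207 CPM in Nat8l-rich wells and 5.66 CPM in Nat8l-low wells, a log2 ratio of 5.19 (4.49 to 5.99). It was seen in 51 of 100 Nat8l-rich and 11 of 165 Nat8l-low wells, with a highest well of 18.4 UMIs per 10000 among the Nat8l-rich and 2.06 among the Nat8l-low. Of its 342 UMIs in Nat8l-rich wells 18.4% came from 1 well. Its 17 UMIs over all Nat8l-low wells make it the marker nearest to absent there, while the 49 Nat8l-rich wells without a UMI show how uneven it was among the members. Tox2, an HMG-box gene, had a log2 ratio of 2.07 (1.76 to 2.39), with a UMI in 73 Nat8l-rich and 62 Nat8l-low wells. The Ras family gene Eras, known from mouse embryonic stem cells, had a log2 ratio of 1.08 (0.72 to 1.44), from 57 Nat8l-rich and 51 Nat8l-low wells. After every well was thinned to 2000 UMIs, Cyp26a1 was found in 23 of 100 Nat8l-rich wells and 0.606% of Nat8l-low wells, and Tox2 in 27 of 100 Nat8l-rich wells and 9.70% of Nat8l-low wells.

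Meg3 and Rian, noncoding RNAs made from the maternal copy of the imprinted Dlk1-Dio3 region, were higher in sum without being typical of a Nat8l-rich well. Meg3 had 253 CPM in Nat8l-rich and 110 CPM in Nat8l-low wells, a log2 ratio of 1.20 (0.99 to 1.41), yet was seen in 43 of 100 Nat8l-rich and 69 of 165 Nat8l-low wells. Both groups had a median of 0 Meg3 UMIs per 10000 and overlapped throughout, with a highest well of 18.6 in the Nat8l-rich and 25.8 in the Nat8l-low. Rian had a log2 ratio of 1.46 (1.07 to 1.86) and was seen in 35 Nat8l-rich and 27 Nat8l-low wells. The same 1 well gave 16.3% of the Meg3 and 22.2% of the Rian UMIs of the Nat8l-rich group. The 2 RNAs sat in the same wells: 30 of the 35 Nat8l-rich wells with Rian also held Meg3, as did 25 of the 27 such Nat8l-low wells. Rian was found in 8.77% of the 57 Nat8l-rich wells without Meg3. With the Nat8l-low wells that held a differentiation gene left out, the log2 ratios of Meg3, Rian and Eras were 0.96, 0.93 and 0.68. Without each gene's strongest well, 1 of the 17 measured imprinted genes was past 2-fold higher instead of 2, and Eras was under 2-fold.

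Counted over Meg3, Rian, Eras, Cyp26a1 and Tox2, 10 Nat8l-rich wells held all 5 markers, 17 held 4, 27 held 3, 19 held 2, 22 held 1 and 5 held none. Among Nat8l-low wells 2 held all 5 and 48 of 165 held none. The markers were thus not all seen in the same wells, although Rian was mostly seen with Meg3. Cyp26a1 and Meg3 were found together in 21 Nat8l-rich wells, 41.2% of those with Cyp26a1, while 44.9% of Nat8l-rich wells without Cyp26a1 held Meg3. A well without a UMI of a marker may still hold its RNA at a low level.

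**Figure D1:**
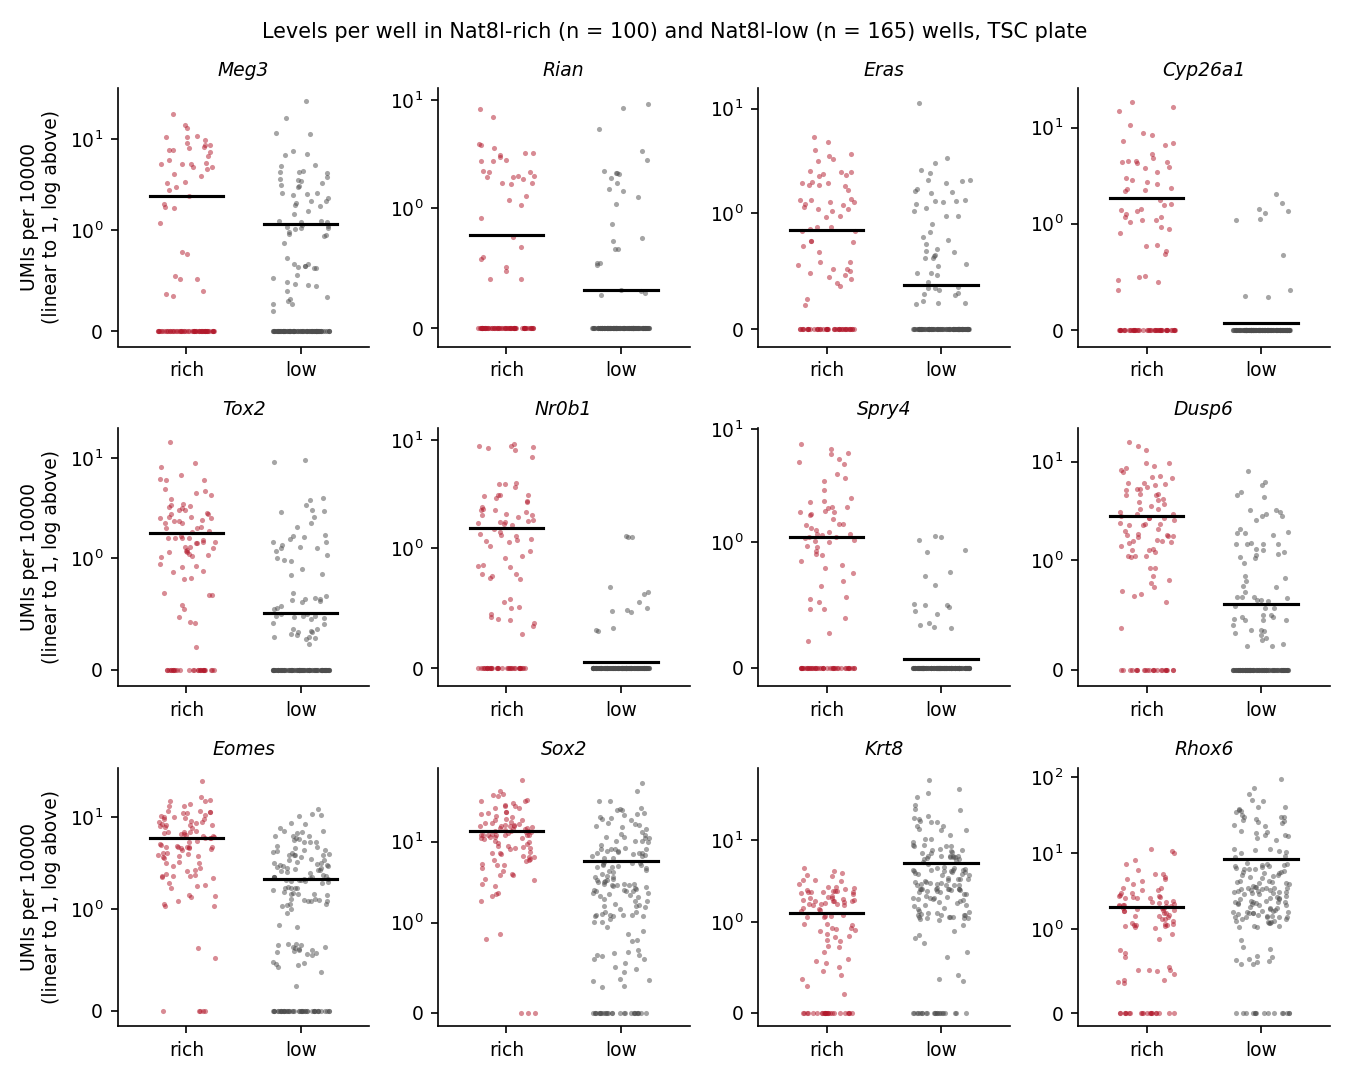
UMIs per 10000 (vertical axis, linear to 1 and logarithmic above) of 12 genes in each Nat8l-rich and Nat8l-low well of the TSC plate, 1 point per well, with a black bar at the mean over wells. Cyp26a1, Nr0b1 and Spry4 are at 0 in most Nat8l-low wells, Meg3 overlaps fully between the groups, and the highest Krt8 and Rhox6 wells are all Nat8l-low.

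Beyond the markers, several genes had larger ratios than most of the markers. Gdf6, a BMP family ligand, had 64.1 CPM in Nat8l-rich and 2.0 CPM in Nat8l-low wells (log2 ratio 5.0, 3.83 to 6.48). Nr0b1, a corepressor of the pluripotency network, had 147 CPM in Nat8l-rich and 6.66 CPM in Nat8l-low wells (4.46, 3.81 to 5.20) and was seen in 66 of 100 Nat8l-rich and 14 of 165 Nat8l-low wells. The highest Nat8l-low well held 1.28 Nr0b1 UMIs per 10000, against a median of 0.817 and a highest value of 9.27 in Nat8l-rich wells. Sox3, a SoxB1 factor, had a log2 ratio of 4.80 (4.18 to 5.50), but 34.0% of its 338 UMIs in Nat8l-rich wells came from 1 well and only 29 of the wells held it. Further genes of this set were the zinc finger genes Insm1 (3.91), Klf14 (3.34) and Zic2 (2.91), the fatty acid receptor Ffar4 (4.15), the peptide hormone gene Calca (3.32), the inositol phosphatase Inpp1 (3.27), the WNT receptor Fzd1 (2.87) and Gm1673 (3.28), all as log2 ratios. Inpp1 was among the widest, with a UMI in 77 Nat8l-rich and 43 Nat8l-low wells. Tmem181b-ps (3.05) is a pseudogene whose reads may belong to its parent gene, so that its value is uncertain.

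FGF and ERK target genes were nearly all higher: 8 of 9 measured members of the list were past 2-fold and 0 were lower. Of all measured genes 2.74% were higher and 3.61% lower. The median log2 ratio of the list was 1.61, where the median over all measured genes was -0.04. All wells came from 1 culture in the same medium, and neither receipt of FGF nor ERK activity was measured. Spry4, which dampens receptor tyrosine kinase signals and is induced by them, had 124 CPM in Nat8l-rich and 9.33 CPM in Nat8l-low wells (log2 ratio 3.73, 3.16 to 4.36). The ERK phosphatase Dusp6 had 286 CPM in Nat8l-rich and 51.3 CPM in Nat8l-low wells (2.48, 2.21 to 2.75). Dusp6 was seen in 77 of 100 Nat8l-rich wells: in 52 of the 57 with Spry4 and in 25 of the 43 without it (58.1%). Deeper wells show both genes more readily, and this was not accounted for. The inhibitors Spry2 (1.74), Spred2 (1.69) and Spred1 (1.39), the AP-1 gene Fosl1 (1.61), the phosphatase Dusp4 (1.25) and Phlda1 (1.20) made up the rest, and Ier3 had a log2 ratio of -0.33. Summed over the 14 genes of the list that had a UMI, a Nat8l-rich well held a median of 11.6 UMIs per 10000 (0.917 to 36.0) and a Nat8l-low well 4.50 (0 to 34.0). Fgfr4, a receptor for FGF outside the list, had a log2 ratio of 2.93 (2.57 to 3.31), and Fgfr2, the receptor known from trophectoderm, had 0.33.

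TSC regulators shifted the same way but less. Of 14 measured members 6 were past 2-fold and 0 lower, beside 2.74% and 3.61% of all measured genes. Their median was 0.71. Eomes, a T-box factor needed for trophoblast, had 621 CPM in Nat8l-rich and 220 CPM in Nat8l-low wells (1.5, 1.35 to 1.64), and was seen in 95 of 100 Nat8l-rich and 119 of 165 Nat8l-low wells. Sox2, which FGF keeps on in TSCs, had 1178 CPM in Nat8l-rich and 505 CPM in Nat8l-low wells (1.22, 1.12 to 1.32). A Nat8l-rich well held a median of 12.1 Sox2 UMIs per 10000 (0 to 58.4) and a Nat8l-low well 2.57 (0 to 53.2), so that the bulk of the wells shifted while the ranges overlapped. The other members past 2-fold were Bmp4 (1.83), Sox21 (1.44), Nr0b1 and Dusp6. Nr0b1 was already named among the genes with large ratios, and Dusp6 was counted among the FGF and ERK targets too. Cdx2 (0.64, 0.27 to 1.02) and Elf5 (0.56, 0.10 to 1.02) stayed under 2-fold, and Gata3 stood at -0.33 (-0.46 to -0.20). Esrrb, with 6 UMIs in Nat8l-rich and 3 in Nat8l-low wells, and Tfap2c, with 8 in Nat8l-rich and 27 in Nat8l-low wells, were too low to measure on this plate. Both had enough counts for the bulk test, so their low counts here do not show that TSCs lack them.

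Polar trophectoderm genes, a list that holds the 5 markers themselves, had 8 of 18 measured members past 2-fold, 1 lower, and a median log2 ratio of 0.95. Shares over all measured genes were 2.74% higher and 3.61% lower. All 5 markers were among the 8 members. They were chosen with earlier results of these data known, so the count and the median are partly built in. The other members past 2-fold were Eomes, the oxidase gene Duox2 (2.82, 2.53 to 3.12) and Gsto1 (1.02), and Rhox5 reached 0.997 without passing 2-fold. Ddah1 (0.91), Ppp2r2c (0.83), Cdx2 (0.64), Utf1 (0.62), Elf5 (0.56), Id2 (0.43) and Fgfr2 (0.33) also stayed under 2-fold. Ndrg1, a stress-induced gene placed in both the polar and the mural list, was the lower one (-2.80). Cited1 (-0.96) was also on the lower side. With the Nat8l-low wells that held a differentiation gene left out, 4 members were past 2-fold and 2 lower, with a median of 0.71. Without each gene's strongest well 5 members were past 2-fold and 1 lower.

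All 6 measured genes of TGF-beta, Nodal and BMP signalling had log2 ratios above 0, with a median of 0.86. The ligands Bmp4 (1.83, 1.58 to 2.10) and Nodal (1.54, 0.78 to 2.32) were past 2-fold, and the inhibitors Bambi (0.90), Smad6 (0.82) and Smad7 (0.61) and the BMP target Id2 (0.43) were not. Among measured genes of retinoic acid metabolism and response, Cyp26a1 and the binding protein gene Crabp1 (2.25) were higher, while the transglutaminase Tgm2 (-4.37) and the receptor gene Rxra (-1.28) were lower. Crabp1 rested on 42 UMIs in Nat8l-rich and 16 in Nat8l-low wells, and 39.4% of the Tgm2 UMIs in Nat8l-low wells came from 1 well. Of the enzymes around N-acetylaspartate and acetate, none of the 4 measured was past 2-fold: Got1 (0.16), Got2 (0.17), Acss2 (-0.22) and the aspartate carrier Slc25a12 (-0.94). In the list of ERAS, PI3K and AKT, Eras itself was the only 1 of 15 past 2-fold, with Akt1 at -0.51. Of the 17 measured imprinted genes 2 were higher, Meg3 and Rian, and 2 lower, Phlda2 (-1.84) and Peg3 (-1.08), while H19 (-0.12), Igf2 (-0.09) and Igf2r (-0.09) lay near 0. Beside these counts, 2.74% of all measured genes were higher and 3.61% lower.

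Differentiation genes lay on the other side. Mural trophectoderm genes had 0 of 15 measured members higher and 8 lower, where 2.74% and 3.61% of all measured genes were. Their median log2 ratio was -1.10. With the Nat8l-low wells that held a differentiation gene left out, 4 of 13 were lower and the median was -0.65. The keratin Krt8 had 129 CPM in Nat8l-rich and 518 CPM in Nat8l-low wells (-2.0, -2.21 to -1.79), with a highest well of 4.60 UMIs per 10000 among the Nat8l-rich and 55.1 among the Nat8l-low. Its partner Krt18 (-1.18), Krt7 (-1.72) and Krt19 (-1.10), the water channel Aqp3 (-1.89), the protease Tmprss2 (-1.85) and Dkkl1 (-1.49) were lower with it. Flt1, a VEGF receptor, was the exception in the list at 0.96. Among epithelial genes apart from keratins, the desmosomal Dsp (-1.10) was past 2-fold lower and Perp (1.64) past 2-fold higher. The others stayed under 2-fold, from the desmosomal Pkp2 (-0.82) and Dsg2 (-0.52) and the catenin Ctnnb1 (-0.64) to Cdh1 (0.07) and Epcam (0.52).

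Ectoplacental cone and spongiotrophoblast genes had 0 of 7 measured members higher and 5 lower, beside 2.74% and 3.61% of all measured genes. Their median was -1.84. With the Nat8l-low wells that held a differentiation gene left out, 3 of 6 were lower and the median was -0.84. Phlda2, an imprinted restrainer of placental growth, had 298 CPM in Nat8l-rich and 1064 CPM in Nat8l-low wells (-1.84, -1.98 to -1.70). The X-linked homeobox genes Rhox6 (-2.24) and Rhox9 (-2.15) had 172 and 123 CPM in Nat8l-rich wells and 812 and 545 CPM in Nat8l-low wells, and as close copies they may share reads. Nrk, a kinase of the spongiotrophoblast, had a log2 ratio of -2.44 (-2.76 to -2.13), with 30.9% of its Nat8l-low UMIs from 1 well. Without that well it was -1.92, and with all Nat8l-low wells that held a differentiation gene left out it was -0.45. Ascl2, Tpbpa and Plac1, also on the list, held 1, 0 and 0 UMIs in Nat8l-rich wells and 17, 1 and 7 in Nat8l-low wells.

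Labyrinth and syncytiotrophoblast genes had 0 of 7 measured members higher and 3 lower, with a median of -0.55. Giant cell genes had 1 of 5 higher and 1 lower, with a median of -0.11. Shares over all measured genes were 2.74% higher and 3.61% lower. Several members were seen in most wells of both groups at similar levels, among them Epcam (0.52) and the lactate carrier Slc16a1 (0.19) of the labyrinth list and the protease Ctsl (0.08) of the giant cell list. The transcription factor gene Cebpb (-1.44) was lower with a UMI in 88 of 100 Nat8l-rich and 157 of 165 Nat8l-low wells. Gcm1, which starts the syncytiotrophoblast, held 0 UMIs in Nat8l-rich wells and 28 in 5 Nat8l-low wells, and Dlx3 held 1 UMI in Nat8l-rich wells and 77 UMIs in 34 Nat8l-low wells (log2 ratio -5.41). Gjb2, a connexin of the labyrinth, held 3 UMIs in Nat8l-rich wells and 728 in 27 Nat8l-low wells, and 84.8% of the 728 came from 1 well. The giant cell genes Ctsj and Serpinb9e held 0 and 4 UMIs in Nat8l-rich wells and 41 and 129 in Nat8l-low wells, 70.5% of the 129 from 1 well. For Dkk1, an inhibitor of WNT, 92.6% of the Nat8l-low UMIs came from 1 well, and its log2 ratio was -3.89 with that well and -0.16 without it. Mmp9 (1.33), on the giant cell list, was higher in Nat8l-rich wells.

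Among the genes with the largest ratios on the lower side were 1600014K23Rik (-4.28), the aldehyde dehydrogenase Aldh3b2 (-3.95), Ldoc1 (-3.56), the focal adhesion gene Tns4 (-3.20), the endocytic adaptor Epn3 (-3.07), Parm1 (-2.69), the lipase Lpl (-2.67) and the prolactin receptor Prlr (-2.63). Epn3 was seen in 28 of 100 Nat8l-rich and 115 of 165 Nat8l-low wells, and Aldh3b2 in 8 Nat8l-rich and 81 Nat8l-low wells. Ppargc1b (-2.56), 3830417A13Rik (-2.52), Tceanc (-2.48), Dnase1l3 (-2.40) and Adam19 (-2.25) completed the set. Ldoc1, derived from a retrotransposon and known to act in placental cells, had 29.8% of its Nat8l-low UMIs from 1 well.

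**Figure D2:**
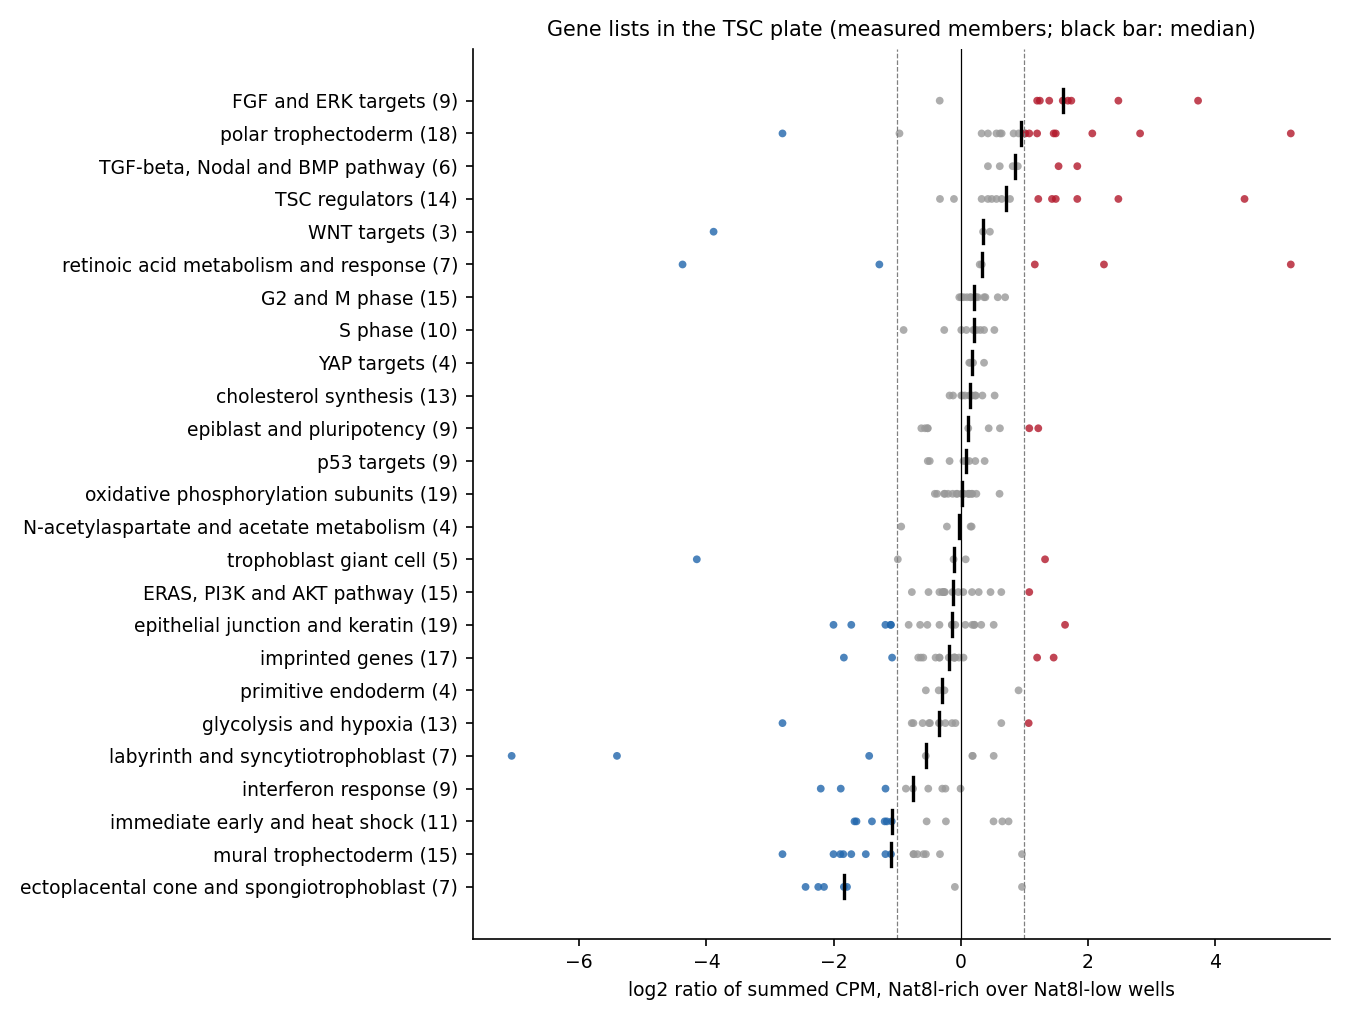
Log2 ratio of summed CPM, Nat8l-rich over Nat8l-low wells (horizontal axis), for the measured members of each gene list, 1 point per gene, red at 2-fold higher or more, blue at 2-fold lower or more and grey between, with a black bar at the list median and the number of measured members in brackets. FGF and ERK targets stand at the top with a median of 1.61 and ectoplacental cone genes at the bottom with -1.84, while cell cycle, cholesterol and oxidative phosphorylation lists sit near 0.

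Cell state lists moved less, apart from stress and interferon response genes. For comparison, 2.74% of all measured genes were higher and 3.61% lower. S phase (0 of 10 past 2-fold, median 0.21) and G2 and M phase (0 of 15, 0.22) lay close to 0, with Ccna2 at 0.70 and Rrm2 at 0.53. Oxidative phosphorylation (0 of 19, 0.02), cholesterol synthesis (0 of 13, 0.15), p53 targets (0 of 9, 0.08) and YAP targets (0 of 4, 0.17) had no gene past 2-fold. Glycolysis and hypoxia genes leaned lower, with a median of -0.34 and 2 of 13 above 0. Among them Egln3 (1.07) was past 2-fold higher and Ndrg1 (-2.80) past 2-fold lower. In the immediate early and heat shock list 6 of 11 were lower, with a median of -1.08, among them Fosb (-1.67), Jun (-1.40) and Jund (-1.20), while Ier2 (0.75), Hsp90aa1 (0.65) and Junb (0.52) lay above 0. With equal weight per well 3 of 11 were lower, and with the Nat8l-low wells that held a differentiation gene left out 5 were lower and the median was -0.52. Such genes respond to handling, and their summed level per 10000 had a median of 11.2 in Nat8l-rich wells (3.89 to 86.4) and 16.3 in Nat8l-low wells (3.25 to 85.5). Their part in the other differences was not tested. Interferon response genes had 3 of 9 lower (median -0.75), with Usp18 (-2.20), Ifit1 (-1.89) and Isg15 (-1.18), and with those Nat8l-low wells left out 1 of 8 was lower and the median was -0.40.

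Markers of other cell types were checked in the same wells. Of the epiblast list 2 of 9 measured members were past 2-fold, Sox2 and Eras, both also known from TSCs or on the marker list. Over all measured genes 2.74% were 2-fold higher. The defining epiblast gene Pou5f1 held 1 UMI in Nat8l-rich and 1 in Nat8l-low wells. For primitive endoderm, Gata6 and Sox17 held 5 and 1 UMIs in Nat8l-rich wells and 3 and 1 in Nat8l-low wells. Of the 4 measured members 0 were past 2-fold. Col4a1 (-0.35), Col4a2 (-0.25) and Lamb1 (-0.55) were seen in most wells of both groups. Lama1 (0.91) was seen in 21 Nat8l-rich and 23 Nat8l-low wells. The 8 fibroblast genes with a UMI together held 20 UMIs in Nat8l-rich and 84 in Nat8l-low wells.

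Along the range of Nat8l the other genes changed by degrees, and the intermediate wells lay between the 2 groups for most of them. In wells with 0, with above 0 and under 3, with 3 to 8, with 8 to 16 and with 16 or more Nat8l UMIs per 10000 (53, 112, 53, 39 and 61 wells), Cyp26a1 stood at 1.68, 6.65, 23.2, 130.3 and 251 CPM. Sox2 followed with 440.0, 521, 861, 1115 and 1214 CPM, and Inpp1 with 28.5, 29.5, 117, 181 and 341. Nr0b1 reached its level earlier, at 0, 8.31, 80.4, 167 and 136 CPM, and Eras was level over the upper 3 ranges at 87.2, 92.4 and 83.1. Falling genes ran the other way: Epn3 stood at 178, 158, 64.0, 28.0 and 14.3 CPM and Ndrg1 at 855, 462, 127, 80.8 and 75.5. Krt8 dropped between the second and the third range, at 685, 477, 158, 155 and 115 CPM. Since the ranges were cut on Nat8l in the same cells, the order is a description.

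**Figure D3:**
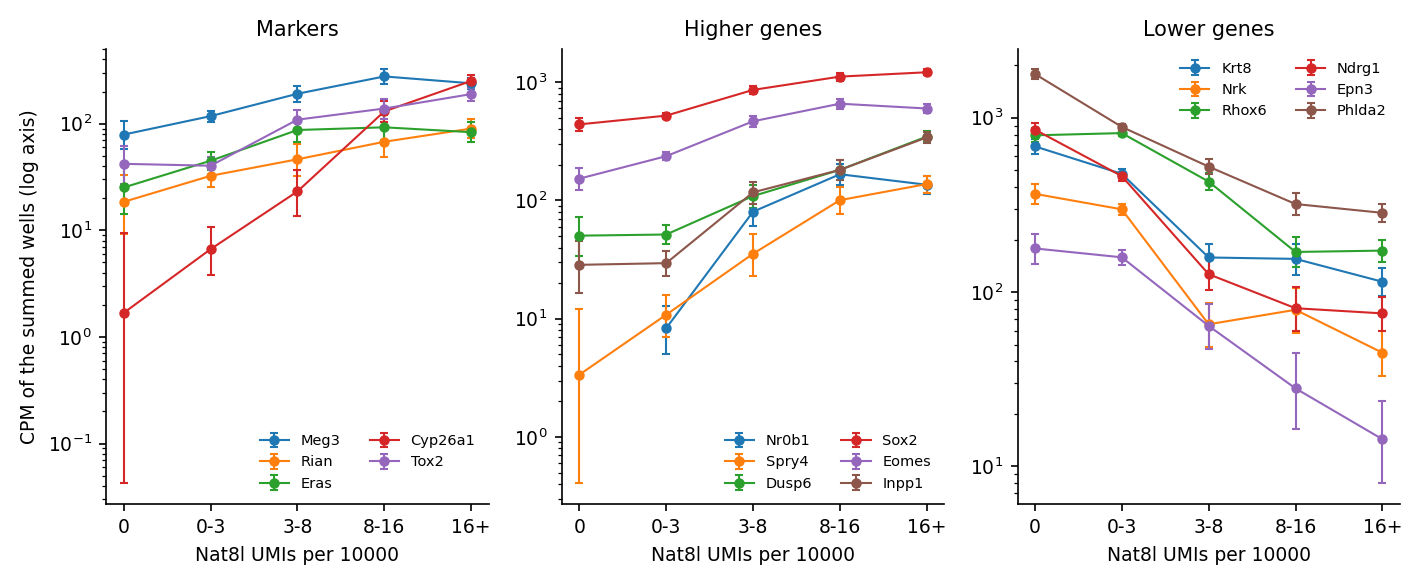
CPM of the summed wells (logarithmic axis) in 5 ranges of Nat8l UMIs per 10000 for the other markers, 6 higher genes and 6 lower genes of the TSC plate, with bars for 95% counting intervals. Cyp26a1 climbs from 1.68 to 251 CPM over the ranges, Epn3 descends from 178 to 14.3, and Nr0b1 has no point in the first range, where it held 0 UMIs.

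The same limits were then applied to the plates that had no part in the choice. They gave 136 Nat8l-rich and 98 Nat8l-low wells of 299 kept on the pTSC plate, 17 and 229 of 257 on the blastoid pTSC plate, and 2 and 308 of 318 on the differentiated TSC plate, where 2 wells were too few for ratios. Each plate is 1 library of another culture, so that values are set side by side without a test. Of the 177 genes higher on the TSC plate, 124 were measured on the pTSC plate, and 37 of these (29.8%) were 2-fold higher there and 1 lower, where 1.76% of all measured genes were higher and 1.76% lower. Of the 233 lower genes 84 were measured, with 28 lower (33.3%) and 0 higher. On the blastoid plate 52 of 88 (59.1%) were higher and 3 lower, where 4.13% of all measured genes were higher, and 108 of 164 (65.9%) of the lower genes were lower and 0 higher, where 12.05% of all measured genes were lower.

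Cyp26a1 had log2 ratios of 2.80 on the pTSC plate and 3.94 on the blastoid plate, beside 5.19 on the TSC plate. Nr0b1 (2.73 and 2.79), Fgfr4 (2.17 and 2.72) and Duox2 (1.65 and 3.27) were likewise past 2-fold on the pTSC and the blastoid plate. Gdf6 (2.75), Sox3 (2.41) and Zic2 (2.35) were past 2-fold on the pTSC plate. On the blastoid plate these 3 genes and Cyp26a1 were under the limit of 50 counts, so that their ratios there are given with their counts only as a description. Cyp26a1 held 21 UMIs in Nat8l-rich and 16 in Nat8l-low wells (2.93 to 4.98). Gdf6 held 13 in Nat8l-rich and 19 in Nat8l-low wells (log2 ratio 3.0, 1.86 to 4.10), Sox3 28 in Nat8l-rich and 8 in Nat8l-low wells (5.36, 4.19 to 6.70), and Zic2 22 in Nat8l-rich and 18 in Nat8l-low wells (3.84, 2.87 to 4.82). FGF targets were less set apart among pTSCs, with Spry4 at 0.87 and Dusp6 at 0.83 there, beside 2.92 and 1.71 on the blastoid plate, where Spry4 held 11 UMIs in Nat8l-rich and 17 in Nat8l-low wells, also under 50. Fzd1 had a log2 ratio of 0.37 (-0.06 to 0.82) among pTSCs. Ffar4, with 13 UMIs in Nat8l-rich and 8 in Nat8l-low wells, and Klf14, with 27 in Nat8l-rich and 21 in Nat8l-low wells, were too low to measure there. The differentiation genes Krt8 (-1.56 and -2.26), Rhox6 (-1.12 and -2.42) and Phlda2 (-1.20 and -1.91) were lower in Nat8l-rich wells of both plates.

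Meg3 and Rian were rarer outside the TSC plate. Over all kept wells Meg3 held 888 UMIs on the TSC plate, 1 on the pTSC plate, 100 on the blastoid plate and 7 on the differentiated plate. Rian held 258, 2, 23 and 4 in the same order of plates. On the pTSC plate 82.3% of kept wells had a Nat8l UMI, while Meg3 was seen in 1 of its 299 kept wells. On the blastoid plate the 100 Meg3 UMIs came from 15 of 257 kept wells, none of them among the 17 Nat8l-rich wells, and with so few wells of either kind an overlap of 0 shows little. Eras was also lower outside the TSC plate, with 61.2 CPM over the kept TSC wells, 8.62 over pTSC wells, 12.5 over blastoid wells and 2.46 over differentiated wells, while Cyp26a1 had 69.8, 114, 27.2 and 3.99 CPM.

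**Figure D4:**
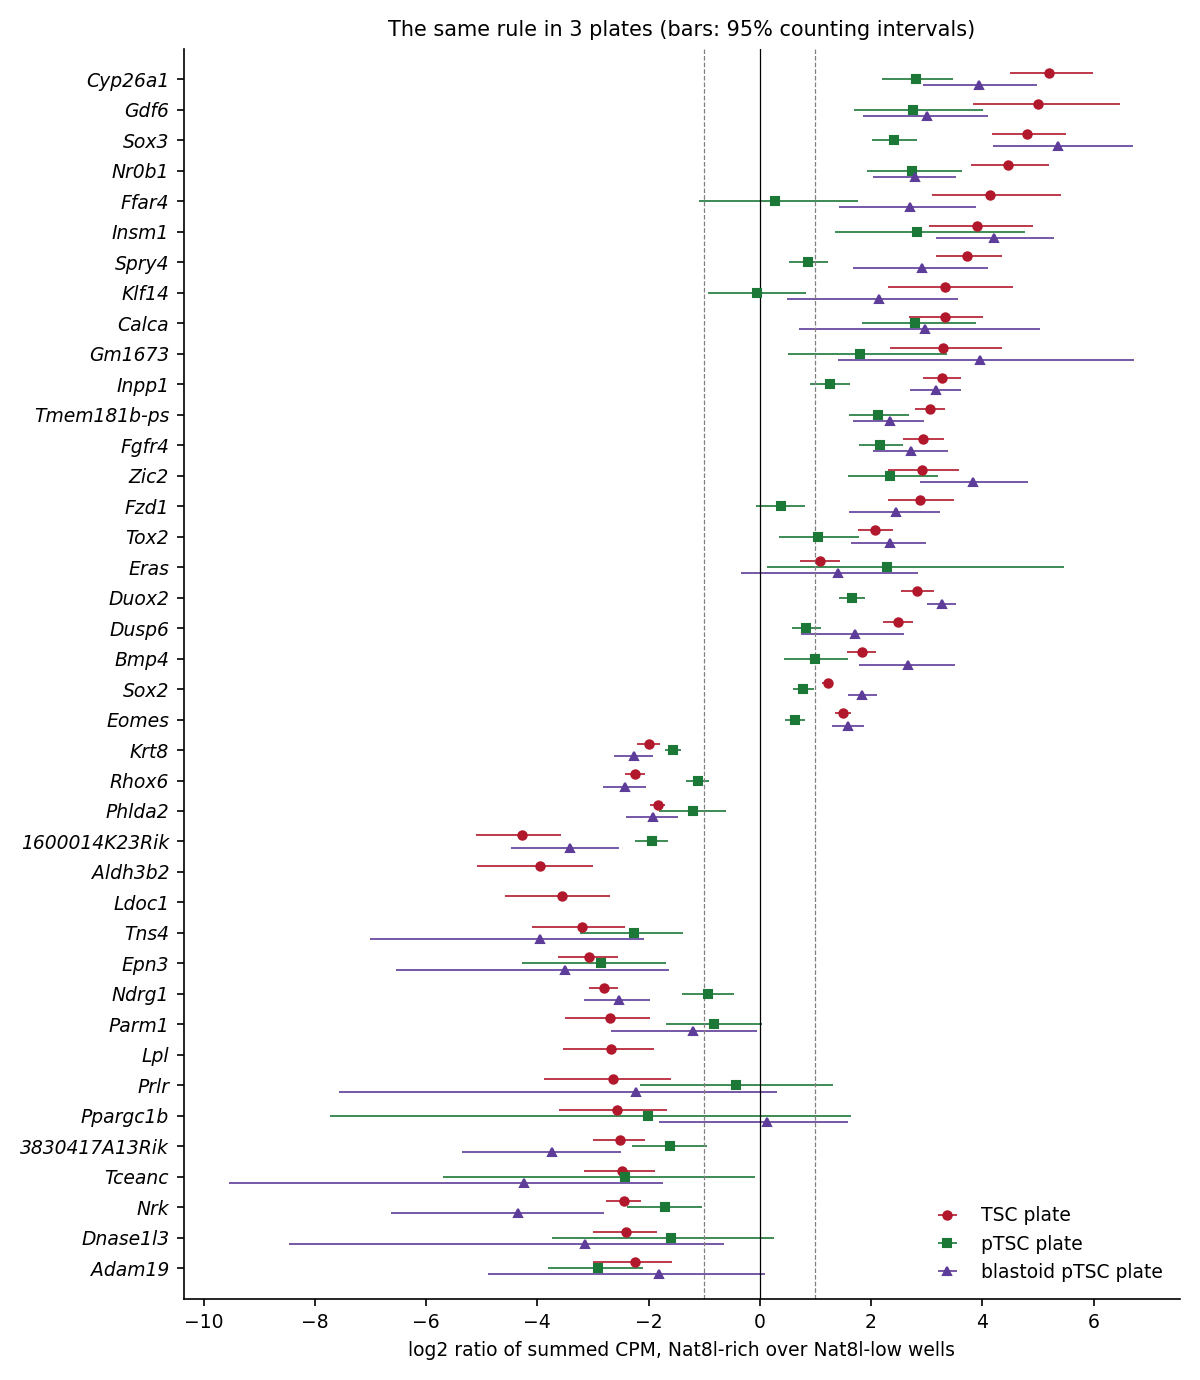
Log2 ratio of summed CPM, Nat8l-rich over Nat8l-low wells (horizontal axis), for named genes on the TSC, pTSC and blastoid pTSC plates, with bars for 95% counting intervals, including genes under 50 counts on the pTSC or blastoid plate, and with no point where a group held 0 UMIs. Nr0b1 and Duox2 lie right of 2-fold on all 3 plates, and Fzd1 lies at 0.37 on the pTSC plate.

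The bulk libraries give the one comparison with replicates, of cells sorted for high against low CDX2. They share no cells or culture plate with the TSC plate, and the sort was on CDX2 and not on Nat8l. Totals were small, 157588 to 272030 counts in the CDX2-high libraries and 116659 to 138966 in the CDX2-low ones, so 3006 of 17793 genes could be tested. At an adjusted p under 0.05 by edgeR's quasi-likelihood test, 93 (3.09%) rose and 84 (2.79%) fell. Leaving out CDX2-high replicate 37, 38 or 39 brought this to 54 and 41, 60 and 42, or 50 and 31, and DESeq2 gave 48 and 27. In bulk, more cells of a kind and more RNA per cell cannot be told apart, and nothing in the labels says that the replicates are separate cultures.

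Of the 177 genes higher in Nat8l-rich wells 46 were tested in bulk, and 16 of them (34.8%) rose in CDX2-high libraries while 1 fell, with a median log2 fold change of 0.81. Of the 233 lower genes 35 were tested, and 19 (54.3%) fell while 1 rose, with a median of -1.06. The median over all tested genes was -0.01. Exceptions were Foxq1, which fell by 1.34 on the log2 scale, and Rab33b, which rose by 0.60. Of the 37 genes called, 17 passed under every alternative that gave an adjusted p, and DESeq2 called 19 of the 35 for which it gave one.

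Inpp1 had 258, 247 and 337 CPM in the CDX2-high libraries and 41.03, 34.7 and 36.5 CPM in the CDX2-low libraries, a log2 fold change of 2.90 with an SE of 0.36 (adjusted p = 9.28e-06, edgeR). The groups did not overlap. Zic2 had 251, 200.3 and 323 CPM in CDX2-high and 30.8, 26.0 and 18.3 in CDX2-low libraries (log2 fold change 3.34 with an SE of 0.41; adjusted p = 9.28e-06, edgeR). Dusp6 had 319, 252 and 275 CPM in CDX2-high and 82.1, 34.7 and 100.4 in CDX2-low libraries (log2 fold change 1.95 with an SE of 0.33; adjusted p = 0.000435, edgeR). Sox3 (2.20), Mmp9 (1.99), Gm1673 (1.65) and Perp (1.13) rose too, Sox3 with an adjusted p of 0.0749 by DESeq2 and Perp with 0.0555 by edgeR without CDX2-high replicate 39.

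Cyp26a1 was the only 1 of the 5 markers with enough bulk counts for a test. It had 144, 172 and 168 CPM in the CDX2-high libraries and 30.8, 78.0 and 54.8 CPM in the CDX2-low libraries, a log2 fold change of 1.54 with an SE of 0.38 (adjusted p = 0.0137, edgeR). All CDX2-high libraries stood above all CDX2-low ones, but the adjusted p was 0.0624 without CDX2-high replicate 39, 0.0641 without CDX2-low replicate 40 and 0.0992 by DESeq2. Meg3 held 0, 0 and 1 counts in CDX2-high libraries and 0 in each CDX2-low library, and Rian 0 in all 6. Tox2 and Eras held 0 or 1 count in each library. Nat8l, given here as a description, had 43, 59 and 52 counts in CDX2-high and 12, 10 and 5 in CDX2-low libraries.

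On the lower side, Krt8 (-1.83), Rhox9 (-2.53), Rhox6 (-1.71), Tns4 (-2.05), Jun (-2.45), Lgals9 (-3.07) and Krt19 (-1.67) fell in CDX2-high libraries. The call of Krt19 was lost with DESeq2 (adjusted p = 0.126) and without CDX2-high replicate 37, 38 or 39 or CDX2-low replicate 40 (adjusted p from 0.0547 to 0.0918 by edgeR). Krt8 had 228, 238 and 297 CPM in CDX2-high libraries and 1026, 789 and 940.1 in CDX2-low libraries, with no overlap. Phlda2 fell by 0.92 with an adjusted p of 0.0491 by edgeR, which did not hold without several single libraries or with DESeq2 (0.304). For the regulators that were higher in Nat8l-rich wells, bulk log2 fold changes were 0.83 for Eomes (SE 0.32, adjusted p = 0.147 by edgeR) and 0.49 for Sox2 (SE 0.22, adjusted p = 0.227 by edgeR), neither past the threshold. Esrrb and Tfap2c, too low to measure on the TSC plate, had mean levels of 297 and 269 CPM in CDX2-high libraries. In CDX2-low libraries their means were 160 and 210 CPM. Log2 fold changes were 0.88 for Esrrb (SE 0.28, adjusted p = 0.0653 by edgeR) and 0.34 for Tfap2c (SE 0.26, adjusted p = 0.526 by edgeR). Slco2a1, a prostaglandin carrier on the giant cell list, had a log2 ratio of -0.11 between the wells and fell by 1.91 in bulk.

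**Figure D5:**
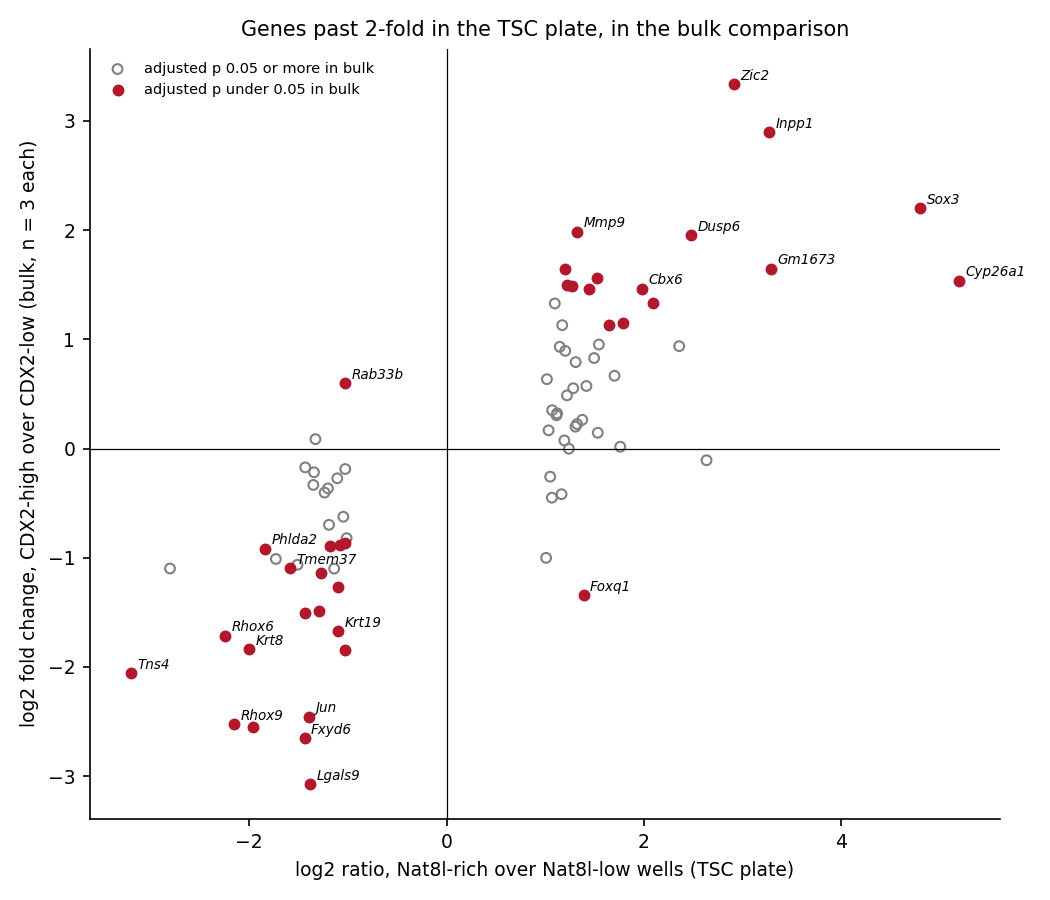
Genes past 2-fold between Nat8l-rich and Nat8l-low wells that were tested in bulk: log2 ratio on the TSC plate (horizontal axis) and log2 fold change of CDX2-high over CDX2-low libraries (vertical axis, n = 3 each), filled where the adjusted p by edgeR was under 0.05. The filled points lie at upper right (16 genes) and lower left (19 genes), with Foxq1 and Rab33b off that line.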

How the data were processed

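RNA was sequenced by CEL-Seq2 in 4 single-cell plates of 384 wells and 6 bulk libraries, with alignment by STAR 2.5.3a per the submitters' processing notes. Build, annotation and counting program: not given in the sources used here. The deposited bulk table gives unscaled whole-number counts of genes in each library. The deposited single-cell tables hold whole numbers of transcripts per gene and well that were treated as estimated counts, since a correction for UMI collisions may have been applied by the authors, and were used with no further rounding.

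Nat8l limits were applied per well after leaving out mitochondrial genes and wells under 2000 UMIs (66 wells of the TSC plate, with 43 Nat8l UMIs among 39077). Counts were summed per group. Genes with at least 50 counts over both groups were measured, and 2-fold was the limit for naming a gene higher or lower. Ratio intervals are exact conditional binomial ones and shares have Clopper-Pearson bounds in the tables, both at 95%, for counting error alone. In a ratio, 0 counts became 3. Doublets were not called, as wells were sorted, and the 5% of wells with most UMIs were dropped in an alternative. The bulk fit used edgeR 4.0.16 (R 4.3.3; filterByExpr, TMM, glmQLFit, glmQLFTest, Benjamini-Hochberg over 3006 genes), and DESeq2 1.42.0 was an alternative. Scripts were tested on simulated data and ran in Python 3.11.15 with numpy 2.4.6, pandas 2.3.3 and scipy 1.17.1.

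Named genes are the markers, the 15 genes with the largest ratio in each direction that had a UMI in at least 25% of the wells of the higher group, up to 4 members of each of 26 lists with the largest ratio, 7 core regulators, and genes called in bulk. Other genes named were picked after their values were seen. The members, the markers and the lists were chosen with earlier results of these data known. Lists share members. RefSeq promoters matched 12 of 19 named higher and 7 of 15 named lower genes, and the direct repeat was searched after the Cyp26a1 window had been seen.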

Additional observations from a re-analysis of the deposited data

Results flagged for a closer look

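For 4 genes that were 2-fold higher in Nat8l-rich wells of the TSC plate, the ratio was 2-fold or more the other way on another plate. The difference between plates was not tested, and each plate is 1 library.

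Rgs16, which shortens G protein signals, had a log2 ratio of -1.25 on the pTSC plate (50 UMIs in Nat8l-rich and 89 in Nat8l-low wells), beside 1.41 on the TSC plate (35 UMIs in Nat8l-rich and 24 in Nat8l-low wells). Meg3 held 0 UMIs in Nat8l-rich wells and 100 in Nat8l-low wells of the blastoid plate, a log2 ratio of -1.51 with the 0 set to 3 counts over the group, which is a bound, beside 1.20 on the TSC plate. The neurofilament gene Nefl had -1.41 on the blastoid plate (3 UMIs in Nat8l-rich and 93 in Nat8l-low wells), beside 2.01 on the TSC plate. Sox4 had -1.56 on the blastoid plate (4 UMIs in Nat8l-rich and 138 in Nat8l-low wells), beside 1.04 on the TSC plate. The blastoid plate had 17 Nat8l-rich wells.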

How the results depend on the processing

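The counts of 177 higher and 233 lower genes on the TSC plate became 87 and 118 when wells were thinned to 5000 UMIs, 648 and 834 with genes of at least 10 counts, and 487 and 670 at 1.5-fold. Without Nat8l-low wells that held any of 6 differentiation genes the lower count was 110. Both counts stayed within 1.5 times under the other alternatives, which were 5000 UMIs per well, a Nat8l limit of 12, all other kept wells as comparison, leaving out the 5% of wells with most UMIs, equal weight per well, a total with mitochondrial genes, and leaving out each gene's strongest well. All 69 named genes past 2-fold kept their direction under these alternatives, and 13 fell under 2-fold in at least 1. In bulk, the 93 genes that rose and 84 that fell became 48 and 27 with DESeq2, and 46 fell after thinning to the smallest library. Leaving out 1 library gave 50 to 98 genes that rose and 31 to 91 that fell. The log2 fold change of Gata3 was -0.12 with all libraries, 0.03 without CDX2-high replicate 38 and 0.065 without CDX2-low replicate 42 (range -0.26 to 0.065 over single libraries left out), and the cause was not tested. Of the bulk values of single genes 388 kept their side of the threshold, 121 lost it and 5 gained it. Thinning of wells and the leave-out of Nat8l-low wells with differentiation genes use fewer counts, fewer genes or fewer wells. No paired analysis was possible because the bulk replicate numbers of the 2 groups share none and each plate is 1 library. Low bulk totals limit the test to well expressed genes, and genes under 50 counts were not measured on the TSC plate.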
